A study of Mus musculus with 11 samples.

Results

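Genes that p53 switches on in mouse cells were followed in lung RNA: Cdkn1a, Mdm2, Aen, Ccng1, Phlda3, Bax, Trp53inp1, Sesn2, Gdf15 and Zmat3. They are a list of 10 names, matched by symbol to Ensembl IDs, and all 10 were found among the 23255 genes of the table. All 10 also passed the filter on low values, a mean of at least 1 over the libraries, which left 16225 genes for testing. The study sequenced whole-lung RNA of C57BL/6 mice, 11 libraries in all. Osimertinib, a drug that blocks the EGF receptor, was given after naphthalene in 5 of them; naphthalene, a toxicant of airway club cells, was given alone in 3; and 3 came from untreated controls. The osimertinib mice thus carried the naphthalene injury as well, and no library had osimertinib without naphthalene. Dose, timing, sex and age are not in the labels, nor is it stated whether replicates are separate mice. The p-values therefore measure only how far these samples spread, and that spread could be technical.

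The transcription factor p53 is stabilised by DNA damage and other stress and then binds a paired sequence element near its target genes. Cdkn1a encodes p21, which stops the cell cycle by inhibiting cyclin-dependent kinases, and Mdm2 encodes the ubiquitin ligase that destroys p53. Other targets promote cell death (Bax, Aen, Phlda3, Trp53inp1) or curb growth and stress (Ccng1, Sesn2, Gdf15, Zmat3). Several of them also answer to other regulators: Cdkn1a to glucocorticoid and TGF-beta signalling, and Sesn2 and Gdf15 to the stress factor ATF4. Whether Cdkn1a moved with the other targets or apart from them was the question put to these libraries.

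A sequence with both parts of the p53 element lies just before an annotated start of Cdkn1a, and it is shown because p53 is known to bind elements of this kind. RefSeq promoter windows (build GRCm38.p6, an earlier build than the one used for the values) covered 8 of the 10 genes. The stretch of 250 bases before the first base of a Cdkn1a transcript is given with the paired p53 element in capitals; it begins 51 bases before that start.
Cdkn1a, chr17:29090729-29090978, plus strand: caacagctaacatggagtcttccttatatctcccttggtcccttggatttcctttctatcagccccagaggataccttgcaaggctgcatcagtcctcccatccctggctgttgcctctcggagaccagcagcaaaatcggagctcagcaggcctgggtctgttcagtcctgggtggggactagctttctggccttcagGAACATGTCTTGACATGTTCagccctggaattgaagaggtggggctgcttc

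The core of that element, CATG followed by 6 bases of any kind and CATG again, which reads the same on both strands, was found in a window of 1 of the 10 genes, Cdkn1a, and in 0.712% of 32851 windows. A single p53 decamer, the motif known by that name and searched on both strands, was found in windows of 5 of the 10 genes and in 8.36% of all windows. These counts are of genes, of which 8 had a window and some had 2, while the percentages are of windows. One example from each of the other 4 genes is given with the decamer in capitals. In Cdkn1a the decamer and the paired core overlap, and they were found in 1 of its 2 windows.
Mdm2, chr10:117710925-117710954, minus strand: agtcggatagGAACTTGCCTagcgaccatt
Ccng1, chr11:40755452-40755481, minus strand: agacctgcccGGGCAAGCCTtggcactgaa
Bax, chr7:45467080-45467109, minus strand: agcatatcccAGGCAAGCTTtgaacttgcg
Aen, chr7:78895927-78895956, plus strand: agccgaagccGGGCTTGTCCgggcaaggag
A match describes these letters in these windows and is not a test of binding.

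The deposited values gave back 5045361 to 13009975 gene reads per library. The gene ENSMUSG00000119584, which the annotation used here does not name, took 43.9 to 60.3% of the reads in 4 libraries, naphthalene 1 to 3 and osimertinib 2, and at most 0.0337% in the other 7. Outside it, those 4 libraries held 2018541 to 2965328 reads and the other 7 held 8418669 to 13006929. The p53 targets therefore rest on few reads there: Cdkn1a had 56 to 65 reads in the naphthalene libraries, against 356 to 532 in the control libraries. The read share separates naphthalene from control in every library, so read share and treatment cannot be told apart in that comparison. Markers of 16 lung and blood cell types were looked at, and no marker was at 0 in all 11 libraries; those of alveolar type 2 and club cells, which define lung, were above 0 in each.

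On the log2(value + 1) scale Cdkn1a was the p53 target with the largest difference in lungs given osimertinib, although by ratio of means Gdf15, on few reads, was larger. Its normalised value, in CPM of a normalised library size, was 39.2, 37.1, 42.7, 35.8 and 57.8 in osimertinib 1 to 5. It was 20.5, 24.1 and 25.7 in naphthalene 1 to 3, and 23.8, 23.3 and 35.6 in control 1 to 3. All 5 osimertinib libraries lay above all 3 naphthalene libraries and above all 3 control libraries, with osimertinib 4 only just above control 3. The means were 42.5 ± 8.93 (SD, n = 5) with osimertinib, 23.5 ± 2.65 (SD, n = 3) with naphthalene and 27.5 ± 6.95 (SD, n = 3) in control, so the mean with osimertinib was 1.81 times that with naphthalene and 1.54 times that of control. For Gdf15 these ratios were 2.17 and 2.04.

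**Figure D1:**
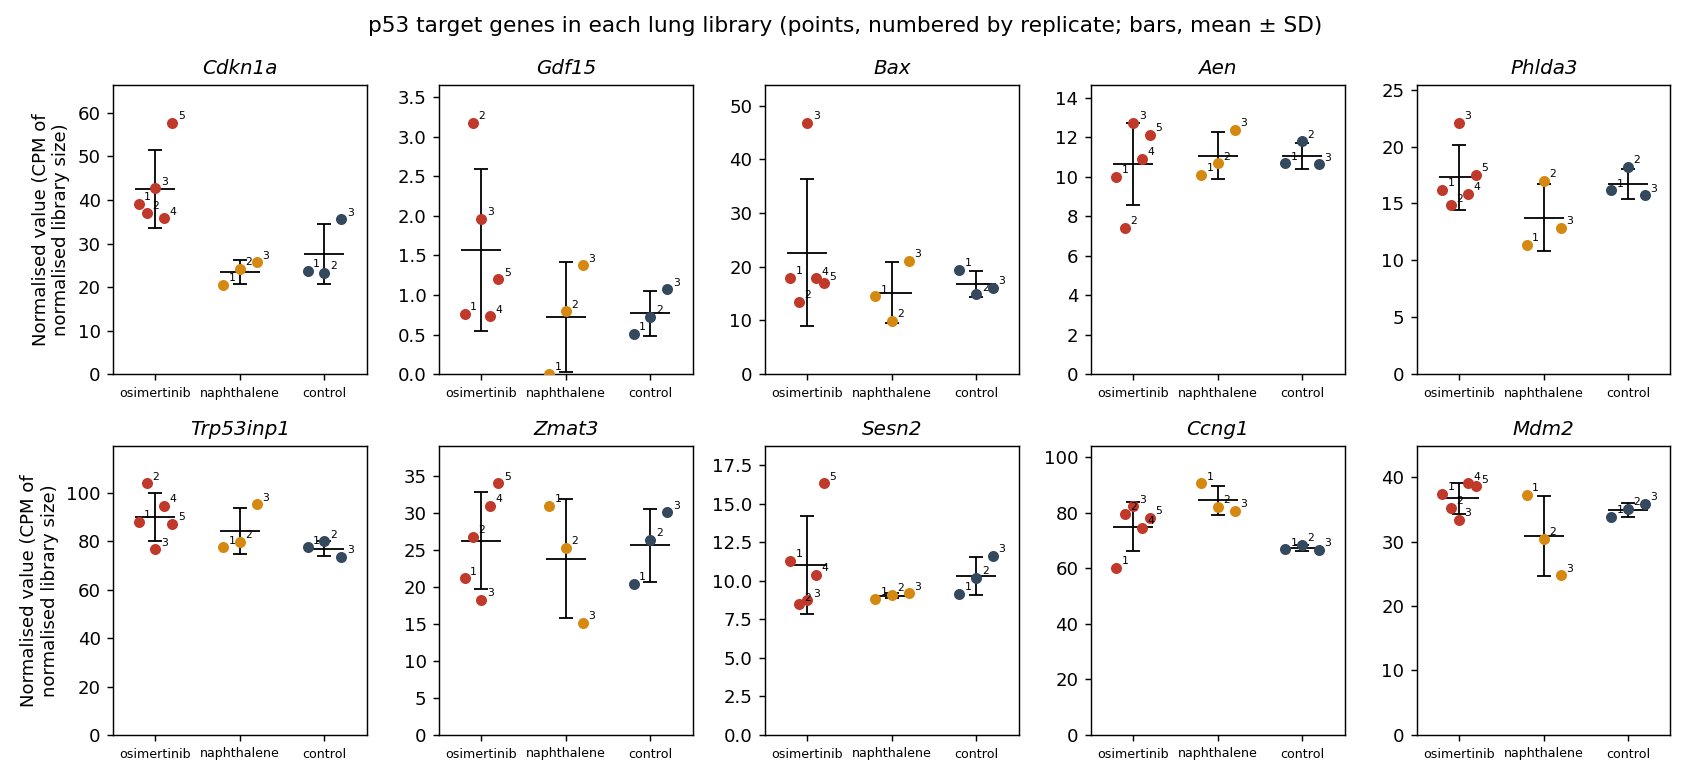
Normalised value of each p53 target (vertical axis, CPM of normalised library size) in every library, in the order osimertinib, naphthalene, control; points are numbered by replicate and bars give the mean ± SD. Cdkn1a is the 1 gene whose 5 osimertinib points all lie above the naphthalene and the control points, and a single osimertinib library, number 3, carries the high Bax value of 46.9.

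On the log2(value + 1) scale Cdkn1a differed by 0.81 (SE 0.18, 95% confidence interval 0.43 to 1.20) between osimertinib and naphthalene. The unadjusted p was 0.00055 and the p adjusted over all genes tested was 0.188 by limma, so the difference did not pass the threshold of 0.05. No gene passed there: the share of the 16225 genes called was 0% by limma, while 10.3% had an unadjusted p under 0.05. Against control the difference was 0.61 (SE 0.18, interval 0.23 to 0.99; limma adjusted p = 0.613), where 0.00616% of genes, a single gene, were called and 4.8% had an unadjusted p under 0.05. The groups of Cdkn1a did not overlap in either comparison, which held, in the higher direction, for 3.82% of all genes against naphthalene and 2.91% against control. Exons of Cdkn1a share 273 bases with AC167363.2 on the opposite strand, which averaged 0.948; whether counting used the strand is not given in the sources used here, so reads of the pair cannot be told apart there. In whole lung, more RNA per cell and more cells that hold the RNA cannot be told apart.

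In naphthalene alone Cdkn1a lay a little lower than in control (log2 difference -0.20, SE 0.20, interval -0.63 to 0.22; limma adjusted p = 0.890). The groups overlapped, and without control 3 the difference was -0.01. The limma count there was 0 genes too (0% called), with 7.46% at an unadjusted p under 0.05.

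The difference was also computed among libraries alike in that read share. Osimertinib 2, alone against the 3 naphthalene libraries, differed by 0.64 (limma adjusted p = 1.00), with its own spread taken to equal theirs. The other 4 osimertinib libraries differed from control by 0.66 (limma adjusted p = 0.825). Without osimertinib 5, the highest library, the differences were 0.70 against naphthalene and 0.50 against control.

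Mdm2, the p53 target that closes the feedback loop, had smaller estimates than Cdkn1a. It was at 37.4, 35.2, 33.4, 39.0 and 38.6 in osimertinib 1 to 5, against 37.3, 30.5 and 24.8 in naphthalene 1 to 3 and 33.8, 35.1 and 35.8 in control 1 to 3. The naphthalene libraries spread most, and all 3 groups overlapped. The log2 difference was 0.26 (SE 0.12, interval 0.0029 to 0.52; limma adjusted p = 0.479) against naphthalene and 0.07 (SE 0.12; limma adjusted p = 1.00) against control. In naphthalene against control it was -0.19 (SE 0.13; limma adjusted p = 0.811). Naphthalene 1 and 3 set these values: the first was 0.12 without naphthalene 3 and 0.40 without naphthalene 1, and the last was -0.05 and -0.33.

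Of the targets that act in cell death, Bax, which opens the outer mitochondrial membrane, was set apart by 1 library. It was at 17.9, 13.5, 46.9, 17.9 and 16.9 in osimertinib 1 to 5, against 14.5, 9.89 and 21.1 in naphthalene 1 to 3 and 19.5, 14.9 and 16.0 in control 1 to 3. Osimertinib 3 stood far above the other 10 libraries, which lay between 9.89 and 21.1. The log2 difference of 0.46 (SE 0.34; limma adjusted p = 0.680) against naphthalene was 0.17 without osimertinib 3, and that of 0.27 (SE 0.34; limma adjusted p = 1.00) against control was -0.02. Osimertinib 3 also had the highest summed value of the 5 erythroid markers, 10355, where the other osimertinib libraries had 745 to 3509. Its sum of the 5 neutrophil markers was 396, where the other osimertinib libraries had 34.5 to 65.7; naphthalene 3, with the second highest Bax value, had 388. The part of these cells in the Bax value was not tested. Exons of Bax share 192 bases with another gene on the same strand, Gm45808, which averaged 0.143.

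Phlda3, which blunts AKT signalling at the membrane, was at 16.2, 14.8, 22.1, 15.8 and 17.5 in osimertinib 1 to 5, against 11.4, 17.0 and 12.9 in naphthalene 1 to 3 and 16.1, 18.2 and 15.7 in control 1 to 3. Here the naphthalene libraries were the low ones, with naphthalene 2 among the rest. The log2 difference was 0.32 (SE 0.15; limma adjusted p = 0.513) against naphthalene and 0.04 (SE 0.15; limma adjusted p = 1.00) against control. Trp53inp1, a stress protein that promotes cell death and autophagy, was at 88.2, 104, 76.8, 94.8 and 87.2 in osimertinib 1 to 5, against 77.7, 79.9 and 95.5 in naphthalene 1 to 3 and 77.6, 80.1 and 73.6 in control 1 to 3. Osimertinib 3 was its lowest osimertinib library and lay among the controls. The log2 difference was 0.09 (SE 0.11; limma adjusted p = 0.805) against naphthalene and 0.22 (SE 0.11; limma adjusted p = 1.00) against control.

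Aen, a nuclease that helps to degrade DNA in dying cells, was nearly level. It was at 9.9998, 7.41, 12.7, 10.9 and 12.1 in osimertinib 1 to 5, against 10.1, 10.7 and 12.4 in naphthalene 1 to 3 and 10.7, 11.8 and 10.6 in control 1 to 3. The groups overlapped throughout, and the log2 difference was -0.07 (SE 0.16, interval -0.42 to 0.29) against naphthalene and -0.07 (SE 0.16, interval -0.42 to 0.29) against control.

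Among the targets that curb growth, Ccng1, a cyclin that recruits a phosphatase to Mdm2, had its highest values with naphthalene. It was at 60.2, 79.7, 82.3, 74.7 and 78.3 in osimertinib 1 to 5, against 90.6, 82.3 and 80.8 in naphthalene 1 to 3 and 66.8, 68.6 and 66.7 in control 1 to 3. All 3 naphthalene libraries lay above all 3 control libraries, which held in the higher direction for 4.94% of all genes. The log2 difference of naphthalene against control was 0.32 (SE 0.12, interval 0.07 to 0.57, limma adjusted p = 0.587, unadjusted p = 0.0164). It was -0.13 when totals outside ENSMUSG00000119584 were made equal, where the median of all genes was -0.48. On the deposited scale that median was -0.06. In osimertinib against naphthalene Ccng1 differed by -0.18 (SE 0.10, limma adjusted p = 0.596), opposite in sign to Cdkn1a, and against control by 0.15 (SE 0.10, limma adjusted p = 1.00).

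Sesn2, a stress-induced inhibitor of the growth kinase mTORC1, was at 11.3, 8.47, 8.73, 10.4 and 16.3 in osimertinib 1 to 5, against 8.84, 9.10 and 9.18 in naphthalene 1 to 3 and 9.15, 10.2 and 11.6 in control 1 to 3. Osimertinib 5 was the highest library for Sesn2, as it was for Cdkn1a. The log2 difference was 0.23 (SE 0.19; limma adjusted p = 0.721) against naphthalene and 0.06 (SE 0.19; limma adjusted p = 1.00) against control, and without osimertinib 5 they were 0.086 and -0.08. With same-numbered libraries fitted as pairs the first was 0.055, and that fit gives osimertinib 4 and 5 no weight. Zmat3, an RNA-binding protein, was at 21.1, 26.7, 18.3, 31.0 and 34.0 in osimertinib 1 to 5, against 30.9, 25.3 and 15.1 in naphthalene 1 to 3 and 20.4, 26.3 and 30.1 in control 1 to 3. Each group spanned much the same range, and the log2 difference was 0.16 (SE 0.24) against naphthalene and 0.02 (SE 0.24) against control.

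Gdf15, a secreted stress hormone of the TGF-beta family, was near the limit of detection. It had 10, 12, 22, 11 and 18 reads in osimertinib 1 to 5, against 0, 2 and 3 reads in naphthalene 1 to 3 and 9, 11 and 16 reads in control 1 to 3. In naphthalene 1, the count of 0 allows a value of up to 0.947, the worth of 3 reads. In normalised values these were 0.763, 3.18, 1.96, 0.732 and 1.20 with osimertinib, against 0, 0.791 and 1.38 with naphthalene and 0.511, 0.720 and 1.07 in control. The groups overlapped, osimertinib 2 and 3 being the high ones. The log2 difference was 0.58 (SE 0.34; limma adjusted p = 0.593) against naphthalene and 0.47 (SE 0.34; limma adjusted p = 1.00) against control, and both understate the change of so low a gene on this scale. Without naphthalene 1 the first was 0.23. Against naphthalene Gdf15 exceeded Cdkn1a with a pseudocount of 0.1 (1.51 beside 0.84), edgeR (1.08 beside 0.87), DESeq2 (1.09 beside 0.82), a term for the read share (1.37 beside 0.64) and the fit in pairs (0.79 beside 0.74). Against control it did so with the pseudocount of 0.1 (0.79 beside 0.63), edgeR (0.85 beside 0.63), DESeq2 (0.94 beside 0.64), the pairs (0.67 beside 0.53) and equal library totals (0.27 beside 0.25). The value with the read-share term rests on osimertinib 2 alone against the naphthalene libraries, with 12 reads for Gdf15. The fit in pairs gives osimertinib 4 and 5 no weight, and its pairs with control rest on equal numbers alone.

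**Figure D2:**
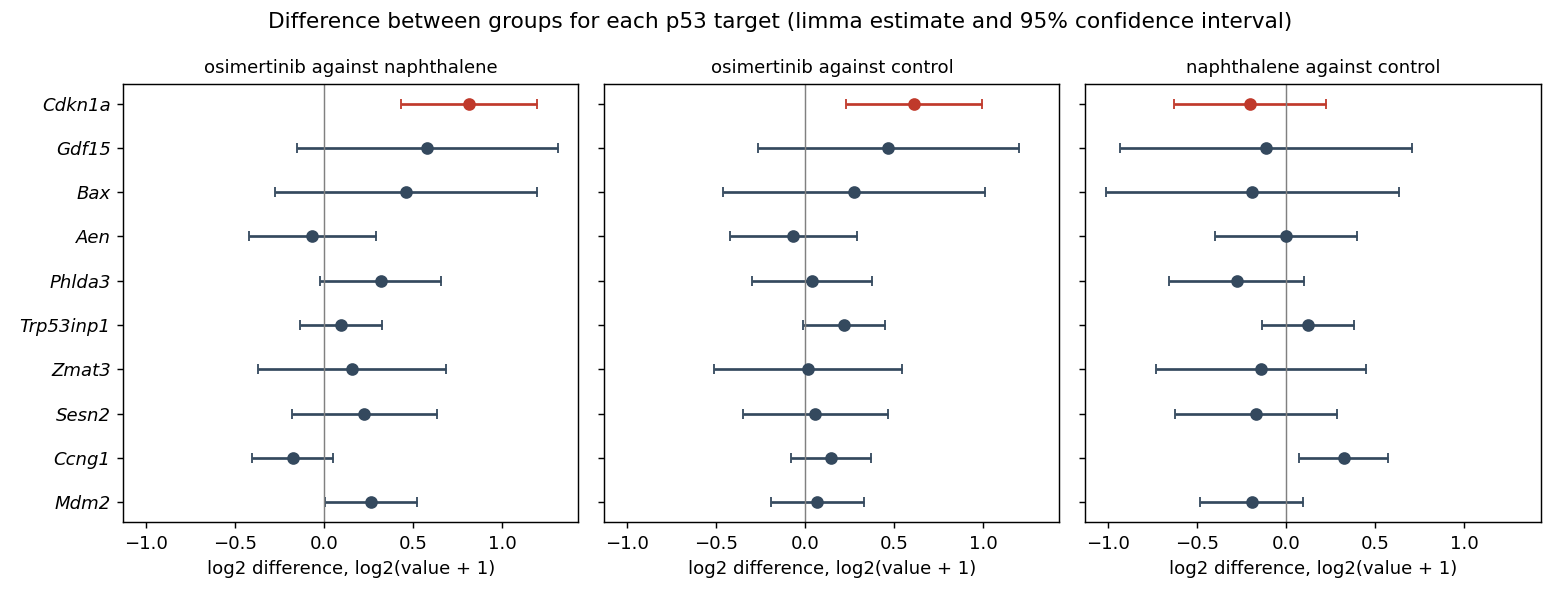
Log2 difference of each p53 target (horizontal axis, on the log2(value + 1) scale; first group minus second) in 3 comparisons, with limma's 95% confidence interval. Cdkn1a, in red, has the largest estimate on this scale in both osimertinib comparisons, 0.81 and 0.61, while the intervals of Gdf15 and Bax are wide enough to hold it.

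Compared per kilobase of exon, the mean over the 11 libraries was highest for Ccng1 (21.5 CPM per kilobase), followed by Trp53inp1 (13.1), Bax (12.1), Phlda3 (10.4), Cdkn1a (9.35), Mdm2 (6.81), Sesn2 (2.96), Zmat3 (2.22), Aen (1.87) and Gdf15 (0.604). With osimertinib Cdkn1a averaged 11.96 CPM per kilobase, against 6.60 with naphthalene and 7.75 in control.

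Set side by side, Cdkn1a had a higher estimate than the other 9 targets on the log2(value + 1) scale, and the gap itself was not tested. In osimertinib against naphthalene the other 9 ranged from -0.18 to 0.58 with a median of 0.23, beside 0.81 for Cdkn1a and 0.06 for the median of all genes. The estimates of 7 of the 9 lay below the confidence interval of Cdkn1a, all but Gdf15 and Bax, as did those of 91.9% of all genes. The whole intervals of 3 did (Ccng1, Aen and Trp53inp1), as did those of 48.9% of all genes. In osimertinib against control the other 9 ranged from -0.07 to 0.47 with a median of 0.07; 7 of 9 estimates (89.5% of all genes) and the whole intervals of 0 of 9 (26% of all genes) lay below that of Cdkn1a. Genes at large thus lay below Cdkn1a at least as often as the other p53 targets did. In naphthalene against control the 9 had a median of -0.14, beside -0.20 for Cdkn1a. These comparisons share libraries, so they are not independent of one another.

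No target passed in any of the 3 comparisons by limma or edgeR, nor by DESeq2 where it gave an adjusted p, which was for 9 of 10 in osimertinib against naphthalene, all 10 in osimertinib against control and 4 of 10 in naphthalene against control. At an unadjusted p under 0.05, Cdkn1a and Mdm2 were the 2 of 10 that were higher with osimertinib than with naphthalene, where 7.08% of all genes were, and Cdkn1a was the 1 of 10 against control, where 2.31% were. With the libraries fitted as pairs, which gives osimertinib 4 and 5 no weight, Mdm2 left this count and Gdf15 entered it in both comparisons. Without the pairs none was lower in either comparison, where 3.22% of genes were lower against naphthalene and 2.5% against control. In naphthalene against control Ccng1 was the 1 of 10 higher (1.73% of genes) and 0 were lower (5.74%). The groups of 0 of 10 lay apart in the lower direction, as they did for 2.12% of genes against naphthalene, 3.43% against control and 11.2% in naphthalene against control. With osimertinib, 8 of 10 lay above 0 against naphthalene (9819 of 16225 genes did) and 9 of 10 against control (7787 of 16225). In naphthalene against control 8 of 10 lay below 0, as did 10056 of 16225 genes.

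Relative to its own mean in control, Cdkn1a was higher by 0.52, 0.44, 0.64, 0.39 and 1.07 on the log2 scale in osimertinib 1 to 5, where the median of the other 9 was 0.0091, 0.012, 0.19, 0.09 and 0.18. It lay above each of the other 9 in osimertinib 1, 4 and 5, below 1 of them in osimertinib 2 (Gdf15), and below 2 in osimertinib 3 (Bax and Gdf15). In naphthalene 1 to 3 it was at -0.38, -0.16 and -0.07, with 7, 6 and 5 of the other 9 above it. In control 1 and 2 it was at -0.18 and -0.20, with 7 and 9 of the other 9 above it, so a low place was not particular to naphthalene. Control 3 was the exception among the untreated lungs: Cdkn1a was at 0.38 there, above all 9. That library also raised the control mean used here as reference.

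**Figure D3:**
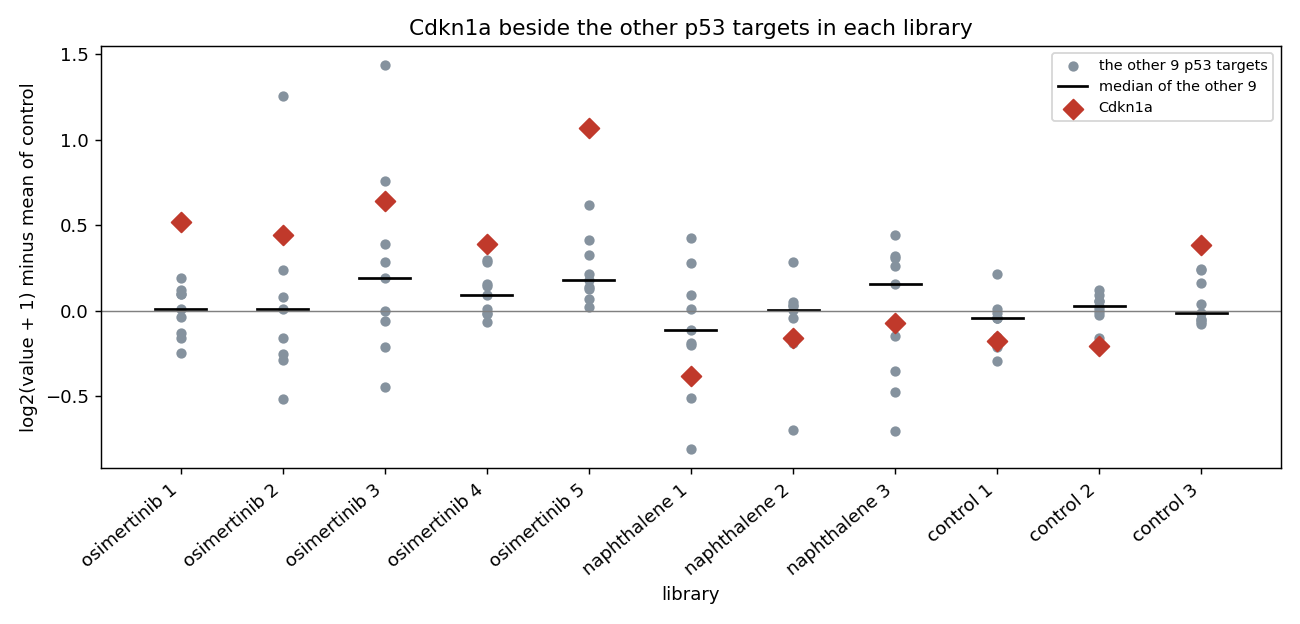
Log2(value + 1) of each p53 target minus its mean in control (vertical axis) in each library; diamonds are Cdkn1a, grey points the other 9 targets and black lines their median. Cdkn1a is above the median of the others in all 5 osimertinib libraries and in control 3. It is below that median in all 3 naphthalene libraries and in control 1 and 2.

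The ratio of Cdkn1a to each other target was also taken library by library. It was higher in all 5 osimertinib libraries than in all 3 naphthalene libraries for 4 of the 9 (Aen, Ccng1, Trp53inp1 and Sesn2). The same was true of the ratio of Cdkn1a to 56.2% of all genes, so 4 of 9 is not a result about the p53 targets. Against control the count was 1 of 9 (Sesn2), beside 28.2% of all genes, and in naphthalene against control 0 of 9, beside 0.499%, while the ratio to 1 of 9, Ccng1, was lower in every naphthalene library than in every control library, as were the ratios to 5.86% of all genes.

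The profile of Cdkn1a over the 11 libraries was most like that of Trim25, Pip5k1a, Tapt1, Dusp16 and Mxd4 among 11694 other genes with a mean of at least 5 (Pearson r = 0.95, 0.92, 0.91, 0.90 and 0.89 on the log2 scale). These correlations describe libraries that share groups and depth. Of the p53 targets, Sesn2 came nearest (r = 0.64, place 361), then Phlda3 (0.49, place 1202), Mdm2 (0.40, place 2035) and Bax (0.36, place 2587). Trp53inp1 (0.27), Zmat3 (0.20), Aen (0.05) and Ccng1 (-0.15) followed, where the median of all genes was 0.12. Spearman's rho for Sesn2 was 0.25. Gdf15 was too low to be ranked.

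The wider p53 pathway was measured as well. Of 32 further p53 targets, 0 passed in any comparison by limma; with osimertinib against naphthalene 3 were higher and 1 lower at an unadjusted p under 0.05, shares near the 7.08% and 3.22% of all genes, and the median log2 difference was 0.10, where that of all genes was 0.06. The death receptor Fas, at 24.0 ± 5.30 (SD, n = 5) with osimertinib and 14.7 ± 6.41 (SD, n = 3) with naphthalene, had the largest difference (log2 0.74, SE 0.25; limma adjusted p = 0.333), and its groups overlapped. Zfp365, which guards stalled replication forks, was at 13.6 ± 3.14 with osimertinib, against 20.4 ± 3.24 with naphthalene (log2 -0.57, SE 0.19; limma adjusted p = 0.326). Gadd45a, a growth arrest and repair factor, was at 5.58 ± 0.942 with osimertinib, against 4.51 ± 1.70 with naphthalene. Bbc3, the killer protein PUMA, was at 7.67 ± 1.43 with osimertinib, against 6.12 ± 0.538 with naphthalene. Control means were 18.1 for Fas, 14.2 for Zfp365, 6.21 for Gadd45a and 7.67 for Bbc3.

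Of 11 measured regulators of p53, 0 passed, and 1, Atm, was lower at an unadjusted p under 0.05 with osimertinib against naphthalene, where 3.22% of all genes were. Trp53 itself was at 21.5 ± 3.75 (SD, n = 5) with osimertinib, 23.1 ± 6.46 (SD, n = 3) with naphthalene and 23.2 ± 1.12 (SD, n = 3) in control; this is the transcript, and the p53 protein was not measured. The DNA damage kinase Atm was at 37.8 ± 2.72 with osimertinib, against 45.3 ± 7.54 with naphthalene (log2 -0.25, SE 0.11; limma adjusted p = 0.475). Ppm1d, the phosphatase that switches p53 signalling off, was at 15.4 ± 3.21 with osimertinib, against 13.3 ± 2.87 with naphthalene, the p53 relative Trp73 at 6.28 ± 1.76 with osimertinib, against 7.42 ± 1.38 with naphthalene, and the kinase Hipk2 at 159 ± 27.2 with osimertinib, against 180 ± 13.1 with naphthalene.

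Among 15 measured genes of the G1 machinery, which are inhibitors of cyclin-dependent kinases, G1 cyclins, the kinases and their partners, 0 passed and 0 had an unadjusted p under 0.05 with osimertinib against naphthalene, where 10.3% of all genes did. The inhibitor Cdkn2d was at 7.05 ± 3.29 (SD, n = 5) with osimertinib, against 4.76 ± 1.09 (SD, n = 3) with naphthalene and Cdkn2c at 8.40 ± 1.86 with osimertinib, against 10.2 ± 1.32 with naphthalene. Cdk2, a kinase that p21 inhibits, was at 13.7 ± 1.72 with osimertinib, against 11.2 ± 3.51 with naphthalene. The cyclin Ccnd3 was at 74.8 ± 17.6 with osimertinib, against 60.9 ± 5.33 with naphthalene. Control means were 5.99 for Cdkn2d, 9.02 for Cdkn2c, 12.8 for Cdk2 and 77.0 for Ccnd3. Of 16 proliferation genes, 13 lay above 0 with osimertinib against naphthalene (9819 of 16225 genes did; median log2 0.30), 1 was higher at an unadjusted p under 0.05 (7.08% of all genes) and 0 passed. Top2a was at 19.5 ± 9.35 with osimertinib, against 11.8 ± 1.47 with naphthalene, Ccna2 at 7.01 ± 4.32 with osimertinib, against 4.37 ± 1.59 with naphthalene, Cenpf at 6.66 ± 3.97 with osimertinib, against 4.19 ± 1.69 with naphthalene and Mki67 at 36.9 ± 20.5 with osimertinib, against 29.7 ± 4.38 with naphthalene. In control these 4 averaged 18.3 (Top2a), 5.02 (Ccna2), 6.12 (Cenpf) and 30.7 (Mki67). The sum of the 16 was 61.4, 86.8, 227, 106 and 104 in osimertinib 1 to 5, against 81.8 to 95.7 in the naphthalene libraries. In the control libraries that sum was 93.1 to 119. Osimertinib 3 stood apart, osimertinib 1 lay below every naphthalene library and osimertinib 2 lay among them.

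Glucocorticoid targets, a group that also counts Cdkn1a among its responders, all lay above 0 with osimertinib against naphthalene: 14 of 14 (9819 of all 16225 genes), with a median log2 difference of 0.56, 4 higher at an unadjusted p under 0.05 (7.08% of all genes) and 0 passed. Tsc22d3, an anti-inflammatory leucine zipper protein, was at 165 ± 79.8 (SD, n = 5) with osimertinib, against 82.9 ± 29.3 (SD, n = 3) with naphthalene, and the phosphatase Dusp1 at 155 ± 61.2 with osimertinib, against 84.9 ± 31.5 with naphthalene. Zbtb16, a transcription factor, was at 68.0 ± 32.4 with osimertinib, against 38.5 ± 15.0 with naphthalene. The metabolic kinase Pdk4 was at 7.87 ± 2.18 with osimertinib, against 4.41 ± 1.38 with naphthalene. Means in control were 102 for Tsc22d3, 164 for Dusp1, 32.0 for Zbtb16 and 4.72 for Pdk4. Osimertinib 5, the highest library for Cdkn1a, had the highest sum of these 14 genes, 1441. Control 3, the highest control library for Cdkn1a, had the highest control sum, 855. Osimertinib 2 and 4, at 727 and 716, had lower sums than control 2 (733), control 3 and naphthalene 3 (815), though higher Cdkn1a values. The part of these genes in the Cdkn1a values was not tested.

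Of 16 ATF4 stress genes, 10 lay above 0 with osimertinib against naphthalene (median log2 0.20), a share close to the 9819 of 16225 of all genes, 2 were higher at an unadjusted p under 0.05 (7.08% of all genes) and 0 passed. The lists share genes, so they are not separate groups. Sesn2, itself among the p53 targets followed here, is in the ATF4 list. Ddit4 is also in the glucocorticoid list, and Nupr1 also in that of injured epithelium. Cebpb, a transcription factor, was at 44.1 ± 19.0 (SD, n = 5) with osimertinib, against 20.2 ± 8.20 (SD, n = 3) with naphthalene, and Ddit3, the stress factor CHOP, at 7.58 ± 2.32 with osimertinib, against 4.71 ± 0.349 with naphthalene. Ddit4, an inhibitor of mTORC1, was at 15.7 ± 5.95 with osimertinib, against 10.7 ± 2.27 with naphthalene. The cystine transporter Slc7a11 was at 5.71 ± 1.89 with osimertinib, against 4.37 ± 1.82 with naphthalene. Control means were 45.1 for Cebpb, 5.60 for Ddit3, 12.9 for Ddit4 and 4.48 for Slc7a11. Genes of injured epithelium, in which Cdkn1a is known to be high, showed 8 of 12 above 0, close to the share of all genes (median log2 0.11), 0 at an unadjusted p under 0.05 and 0 passed. Lgals3 was at 99.8 ± 75.9 with osimertinib, against 66.8 ± 32.1 with naphthalene. Nupr1 was at 60.05 ± 25.2 with osimertinib, against 47.5 ± 18.8 with naphthalene. Plaur was at 20.3 ± 5.36 with osimertinib, against 15.6 ± 3.10 with naphthalene. Sfn was at 10.1 ± 3.04 with osimertinib, against 8.99 ± 2.16 with naphthalene. Lgals3, Nupr1 and Sfn were highest in osimertinib 3. In control the means were 60.5 for Lgals3, 45.8 for Nupr1, 16.2 for Plaur and 8.89 for Sfn.

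Markers of monocyte-derived macrophages also had higher sums with osimertinib. All 10 lay above 0 with osimertinib against naphthalene (9819 of 16225 genes did), and their summed value was 355 to 459 in the osimertinib libraries, 274 to 304 in the naphthalene libraries and 273 to 329 in the control libraries. None was at 0 in any library. Of 6 fibroblast markers 5 lay above 0, with sums of 1025 to 1732 in the osimertinib libraries, highest in osimertinib 5, 869 to 1173 in the naphthalene libraries and 830 to 1108 in the control libraries. The 6 B cell markers had lower sums, at 33.1 to 81.3 with osimertinib, 116 to 174 with naphthalene and 108 to 172 in control. Other cell types lay apart from control too. Sums of the 8 alveolar type 2 markers were 14044 to 27738 with osimertinib, 12848 to 19206 with naphthalene and 11839 to 13337 in control. In the same order, alveolar macrophage sums were 454 to 899, 331 to 534 and 335 to 378. Club cell sums were 3254 to 10190, 5720 to 10923 and 13023 to 16300. The part of all these cells in the Cdkn1a difference was not tested.

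The scale of the libraries moved all genes together. When all library totals were made equal, the median gene itself lay at 1.11 in osimertinib against naphthalene and at -0.34 in osimertinib against control. Cdkn1a lay above that median by 0.84 and 0.60, where the deposited scale gave 0.76 and 0.62.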

How the data were processed

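Whole-lung RNA, depleted of ribosomal RNA per the labels' protocols, gave 11 libraries. The authors deposited a normalised signal, in CPM of an adjusted library size. Trimmomatic 0.38, RSEM 1.3.0, Bowtie2, edgeR and the build GRCm39 are named in the submitters' processing notes, with no roles. Values were whole multiples of each library's smallest one (100% within 0.01), which gave back whole reads. GENCODE M21 (GRCm38) named 23123 of 23255 IDs. The test was limma (version 3.58.1, R 4.3.3) on log2(value + 1), with a variance trend and the 3 groups in 1 fit. Benjamini-Hochberg adjustment was over 16225 genes, with a threshold of 0.05. The test was also run on simulated counts, in which each gene had the same share of reads in all libraries apart from changes put in. These lacked the uneven share of ENSMUSG00000119584, so they do not show how the test fares on libraries like these. Differences are the first-named group minus the second. Alternatives included edgeR (4.0.16), which called 0, 1 and 0 genes for osimertinib against naphthalene, osimertinib against control and naphthalene against control on those reads, and DESeq2 (1.42.0), which called 21, 75 and 11.

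The members, gene lists and tests were chosen with earlier results of these data known. Besides the 10 targets, up to 4 genes of each list were named, those with the largest difference between osimertinib and naphthalene and a mean of at least 5, and the 5 genes most like Cdkn1a. Trp53 and the overlapping genes were named after their values were seen. Deviations from the group means correlated across genes between same-numbered osimertinib and naphthalene libraries (0.12, 0.16 and 0.52), so the numbers were taken as pairs there, although no label states what equal numbers have in common and osimertinib 1 and 2 each correlated more with another number (0.14 and 0.19). The fit in pairs matched the control libraries by number as well. Same-numbered correlations with control were -0.04, 0.07 and -0.15 for osimertinib 1 to 3, and -0.06, 0.20 and -0.09 for naphthalene 1 to 3. The values thus give little ground for pairs with control, and results of that fit against control rest on the numbers alone. Osimertinib 4 and 5 share their numbers with no other library, so the fit in pairs gives them no weight. The limit for a count of 0 is 3 reads and covers counting error only.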

Additional observations from a re-analysis of the deposited data

Results flagged for a closer look

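In 7 of 43 named genes examined, the highest of the 5 osimertinib libraries stood further from its neighbour than 0.71 of the group's range, and in all 7 that library was osimertinib 3. The same gap was seen at either end of the group in 18.1% of all 16225 genes, and with osimertinib 3 highest in 13.2%, so these 7 are not set apart from genes at large. Chance flags about 1 gene in 20. The 43 include genes named for large differences in these same libraries and are not independent of each other. Bax was at 46.9 there, against 13.5 to 17.9 in the other 4. Cdkn2d was at 12.7 (others 4.50 to 6.72), Ppm1d at 20.9 (12.97 to 15.0) and Ccna2 at 14.5 (3.44 to 6.09). Of the genes of injured epithelium, Lgals3 was at 235 (61.4 to 70.2), Nupr1 at 103 (42.3 to 59.6) and Sfn at 15.4 (7.94 to 9.46). Bax was the only one of the 10 p53 targets so flagged; Cdkn1a was at 42.7 in osimertinib 3, inside its group's range of 35.8 to 57.8.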

How the results depend on the processing

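Cdkn1a stayed above 0 in all 26 alternatives for osimertinib against naphthalene (0.64 to 1.95) and in all 26 against control (0.25 to 0.80). Of these it passed with equal library totals against naphthalene (1.95) and in no other. Outside equal totals its adjusted p lay between 0.098 and 1.00 against naphthalene and between 0.121 and 1.00 against control. Leaving out 1 library gave 0.70 to 0.88, 0.50 to 0.80 and, for naphthalene against control, -0.30 to -0.01. The last was -1.69 with equal totals and 0.011 with a term for the read share. That term takes the effect of read share from osimertinib 2 against the other osimertinib libraries, so it rests on 1 library. With the replicate block Cdkn1a differed by 0.74, 0.53 and -0.20 in the same order. The block brought no p53 target past the adjusted threshold, and it gives osimertinib 4 and 5 no weight.

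Genes called were 0 in osimertinib against naphthalene, 1 against control and 0 for naphthalene alone against control. In that order they became 14282, 88 and 15509 with equal totals, where 10, 0 and 9 of the p53 targets were called. With array weights they were 4, 149 and 5, with the read-share term 2, 2 and 2, with DESeq2 21, 75 and 11, without osimertinib 2 and 3 together 47, 2 and 38, and with only the groups compared 1, 1 and 21. Equal totals outside ENSMUSG00000119584 gave 7 in the first and 0 in the second, the replicate block 0 in the second, and the low-share libraries alone 2 in the second. Leaving out 1 library gave 0 to 11, 0 to 2 and 0 to 12. The 11 and the 12 came without osimertinib 2, and 4 in the first came without osimertinib 3. The second was 0 without osimertinib 1, osimertinib 5 or any 1 control library. No p53 target with an adjusted p was called in these settings other than equal totals.

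Small differences changed sign. In naphthalene against control they did with equal totals (Ccng1 -1.22, Trp53inp1 -1.42), with equal totals outside that gene (Ccng1 -0.13, Trp53inp1 -0.33), with the read-share term (Aen 0.56, Bax 0.51, Sesn2 0.22, Trp53inp1 -0.14), and for Aen with a pseudocount of 5 (0.00053), median-ratio rescaling (0.055) and DESeq2 (0.054). In osimertinib against naphthalene they did with equal totals (Aen 1.00, Ccng1 0.99), outside that gene (Aen 0.16, Ccng1 0.069), with the block (Zmat3 -0.066), and with the read-share term or within the high-share libraries (Bax -0.098, Sesn2 -0.084). In osimertinib against control they did with equal totals (Mdm2 -0.29, Ccng1 -0.22, Phlda3 -0.32, Bax -0.081, Trp53inp1 -0.15, Sesn2 -0.28, Zmat3 -0.34), outside that gene (Mdm2 -0.13, Ccng1 -0.060, Phlda3 -0.16, Sesn2 -0.13, Zmat3 -0.18), with array weights (Phlda3 -0.042), with the block (Sesn2 -0.11, Zmat3 -0.21), with the read-share term or within the low-share libraries (Aen 0.045, Zmat3 -0.00019), and without osimertinib 2 and 3 (Phlda3 -0.013). Leaving out 1 library gave, in naphthalene against control, Aen -0.078 to 0.057, Gdf15 -0.39 to 0.24, Bax -0.44 to 0.066 and Zmat3 -0.35 to 0.14; in osimertinib against naphthalene, Aen -0.13 to 0.045 and Zmat3 -0.13 to 0.37; and in osimertinib against control, Aen -0.13 to 0.045, Zmat3 -0.13 to 0.14, Phlda3 -0.049 to 0.099, Bax -0.019 to 0.41 and Sesn2 -0.083 to 0.14. Without a change of sign, leaving out 1 library in osimertinib against naphthalene gave Mdm2 0.12 to 0.40, Phlda3 0.20 to 0.47, Ccng1 -0.21 to -0.10 and Sesn2 0.086 to 0.30. With equal totals the median gene lay at -1.46 in naphthalene against control, 1.11 in osimertinib against naphthalene and -0.34 in osimertinib against control. With equal totals outside that gene these medians were -0.48, 0.29 and -0.20. Signs in those settings therefore include this shift. What else set these changes was not tested. Reads limit the naphthalene values most, with 0 to 3 for Gdf15 and 20 to 28 for Sesn2.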
